A study of Mus musculus with 6 samples.

Results

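The genes described here are 37 lysosomal enzymes and membrane proteins, of 16588 genes counted, in mouse lung group 2 innate lymphoid cells, or ILC2s. ILC2s are tissue lymphocytes that answer the alarm cytokine IL-33 with type 2 cytokines. The 37 genes were chosen by gene symbol, as genes whose products work in the lysosome, by someone who already knew their measured levels in both genotypes. Their differences between the genotypes are therefore given as a description. Where a gene is called higher or lower, the call comes from a fit over all genes and only labels the value, since it is no independent test of genes chosen in this way, and nothing is read from how many carry it. All 37 had a row in the count table and all 37 passed the filter on low counts.

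RNA was sequenced in 3 libraries labelled Cnr2 KO and 3 WT libraries, whose genotype is given as C57BL/6. Cnr2 is the gene of CB2, a receptor for cannabinoids, and the comparison asks how ILC2s with and without it differ. The series title names adipose tissue, whereas the labels and design text of all 6 libraries give the lung. Mice of both genotypes had received 0.5 µg of IL-33 by the nose on each of 3 days, cells were taken from the lung on day 4, and sorted ILC2s were then cultured for 18 h. The labels give neither the Cnr2 allele nor the age of the mice, and do not say whether replicates came from separate mice. P-values therefore measure only the spread between these libraries, which may be technical.

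Lysosomes are acidic vesicles in which proteins, sugar chains and lipids are broken down. A proton pump, the V-ATPase, acidifies them, heavily glycosylated proteins such as LAMP1 line their membrane, and soluble hydrolases reach them mostly through receptors for mannose 6-phosphate. The transcription factor TFEB and its relatives TFE3 and MITF switch on many lysosomal genes through a promoter element known as the CLEAR motif, which is built around an E-box. In lymphocytes, lysosomes also serve to degrade receptors and to store secreted granule contents.

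Total counts were 17867541 to 19399819 in libraries labelled Cnr2 KO and 19056174, 129617689 and 19091963 in WT replicates 1, 2 and 3. Cnr2 itself had 147, 139 and 135 counts in libraries labelled Cnr2 KO, against 76, 503 and 60 counts in WT. Its level was 2.01-fold higher in libraries labelled Cnr2 KO (edgeR adjusted p = 2.11e-05), against the direction of the label, so the groups are called by their labels throughout. Single exons have no values of their own here, so the allele itself was not examined. All 10 ILC2 markers had a value, and Gata3, Il1rl1, Il5 and Klrg1 each averaged 288 CPM (counts scaled to library size by TMM) or more in both groups, while Thy1 was low, at 3.69 CPM in libraries labelled Cnr2 KO and 0.92 CPM in WT. These markers differed in both directions: 7 of 10 were called higher, Gata3 by 3.72-fold and Rora by 2.24-fold, and 2 lower, Il13 by 1.88-fold and Areg by 1.74-fold. The ratio of their summed levels, libraries labelled Cnr2 KO over WT, was 1.27. Markers of macrophages, cells rich in lysosomes, were near 0: their summed level was 0.411 to 1.55 CPM in libraries labelled Cnr2 KO and 0.0542 to 0.21 CPM in WT. Only 3 of the 12 macrophage markers, Adgre1, Lyz2 and Cd14, had a value, and none passed the filter. Neutrophil markers summed to 0.943 CPM or less, with 2 of 6 having a value, and dendritic markers, 4 of 7 with a value, to 20.4 to 25.6 CPM in libraries labelled Cnr2 KO against 9.98 to 12.6 CPM in WT, mostly Xcr1. T cell markers, 5 of 8 with a value and none for Cd4 or Cd8a, summed to 19.7 to 23.0 CPM in libraries labelled Cnr2 KO against 7.89 to 8.14 CPM in WT. Cd3g averaged 17.2 CPM in libraries labelled Cnr2 KO and 4.65 CPM in WT, while Trac was called lower, at 0.464 CPM in libraries labelled Cnr2 KO and 1.48 CPM in WT. Of 5 B cell markers Cd79b alone had a value, 25.1 to 26.3 CPM in libraries labelled Cnr2 KO against 16.1 to 17.2 CPM in WT. Epithelial markers, 3 of 6 with a value and none for Sftpc, summed to 45.5 to 51.6 CPM in libraries labelled Cnr2 KO against 12.5 to 25.4 CPM in WT. Epcam was 4.24-fold higher in libraries labelled Cnr2 KO, whereas Krt18 was called 2.90-fold lower and Krt8 was at 0 in all 3 of them, against 8.61, 1.91 and 0 CPM in WT. Those of eosinophils, basophils and mast cells, 3 of 7 with a value, stood at 3.70 to 4.33 CPM in libraries labelled Cnr2 KO against 1.58 to 3.43 CPM in WT, with Cpa3 and Fcer1a called higher and Mcpt8 lower. The part of these markers' cell types in the results below was not tested. In bulk RNA, fewer cells of a type and less RNA per cell cannot be told apart.

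Some of the promoters held an E-box, the core of the CLEAR motif. That motif is known from lysosomal genes, and the 37 were chosen as lysosomal genes. Its share among them is therefore a description and no independent result. RefSeq promoters (GRCm38.p6, windows of 300 bases lying mostly before a transcription start) were at hand for 31 of the 37 genes. Ctsb, Ctsh, Asah1, Npc1, Atp6v1b2 and Atp6v1h had none in the table. The E-box core CACGTG, which reads the same on both strands, lay in the promoters of 12 of the 31 genes (38.7%), against 12.2% of 9270 tested genes with a promoter and 8.09% of 27025 genes in all. The longer form TCACGTGA, also the same on both strands and always containing the E-box core, lay in 7 of the 31 (22.6%), against 2.31% and 1.12%. A match is a description of the letters and not a binding site shown here. The stretches that hold the longer form are printed here on the strand of the gene, 5′ to 3′, because they show the element most often tied to lysosomal genes. Capitals mark TCACGTGA.
Ctsd, cathepsin D, chr7:142387889-142387956, minus strand: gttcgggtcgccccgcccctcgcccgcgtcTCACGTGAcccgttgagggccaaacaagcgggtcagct
Ctsa, cathepsin A, chr2:164833730-164833814, plus strand: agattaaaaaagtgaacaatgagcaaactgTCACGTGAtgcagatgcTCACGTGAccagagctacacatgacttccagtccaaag
Mcoln1, a calcium channel, chr8:3500443-3500510, plus strand: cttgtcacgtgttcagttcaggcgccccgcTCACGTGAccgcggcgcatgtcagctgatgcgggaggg
Atp6v0d1, a pump subunit, chr8:105566031-105566098, minus strand: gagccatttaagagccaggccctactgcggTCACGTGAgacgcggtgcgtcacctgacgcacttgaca
Atp6v1a, a pump subunit, chr16:44139354-44139421, minus strand: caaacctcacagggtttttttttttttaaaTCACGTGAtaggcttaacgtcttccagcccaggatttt
Gla, alpha-galactosidase A, chrX:134601163-134601255, minus strand: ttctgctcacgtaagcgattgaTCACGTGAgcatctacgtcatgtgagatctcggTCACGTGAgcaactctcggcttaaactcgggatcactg
Cln3, a membrane protein, chr7:126583321-126583388, minus strand: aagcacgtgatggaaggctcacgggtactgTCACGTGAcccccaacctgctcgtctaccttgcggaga

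The 5 other genes with CACGTG alone were Lamp1, with 4 copies, and Glb1, Gaa, Lgmn and Ctsl, with 1 each. The printed Ctsa and Cln3 stretches belong to 1 of 2 annotated starts of each gene, and the window at the other start held no CACGTG. Lgmn likewise had its copy at only 1 of 2 annotated starts. Genes with the longer form stood on both sides of the comparison: Ctsd, Ctsa, Mcoln1 and Atp6v0d1 were higher in libraries labelled Cnr2 KO, Gla and Cln3 were lower, and Atp6v1a was not called. Over all 12150 tested genes, 33.1% were called higher and 33.2% lower (edgeR, adjusted p under 0.05). Of the 12 genes with CACGTG, 6 were called higher and 3 lower, with a median log2 fold change of 0.19. Of the 19 with a promoter but no CACGTG, 13 were called higher and 4 lower, with a median of 0.49. Psap and Grn, 2 of the genes with the highest fold change, were among those without it. Outside the 37, the longer form lay in 4 of 18 promoters of genes of sorting, tethering and lysosome positioning and 5 of 31 of other lysosomal membrane proteins. It lay in 3 of 38 of other hydrolases and 2 of 16 of other V-ATPase subunits. The TFEB family and nutrient-sensing genes had it in 0 of 19, and cathepsin inhibitors in 0 of 8.

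By the edgeR quasi-likelihood test over all 12150 tested genes, with a Benjamini-Hochberg adjusted p under 0.05 as the call, 23 of the 37 were called higher, 7 lower and 7 were not called. Over all tested genes, 66.3% were called, 33.1% as higher and 33.2% as lower. At least 1.5-fold differences were found in 9 genes called higher and 2 called lower, where 16.9% and 15.7% of all tested genes passed the same rule. In 31 of the 37 genes the groups' values stood apart with no overlap, as they did in 68.9% of all tested genes. The median log2 fold change of the 37 was 0.24, against 0.01 over all tested genes. Their summed level was 6155, 6194 and 6003 CPM in libraries labelled Cnr2 KO, against 4960, 5012 and 5021 CPM in WT, a ratio of 1.22. Ctsd and Laptm5 held 786 of the 1120 CPM between the groups' means, and the ratio of the summed levels of the other 35 genes was 1.08. Replicates lay close together, with a median coefficient of variation over the 37 genes of 4.06% in libraries labelled Cnr2 KO and 2.79% in WT.

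**Figure D1:**
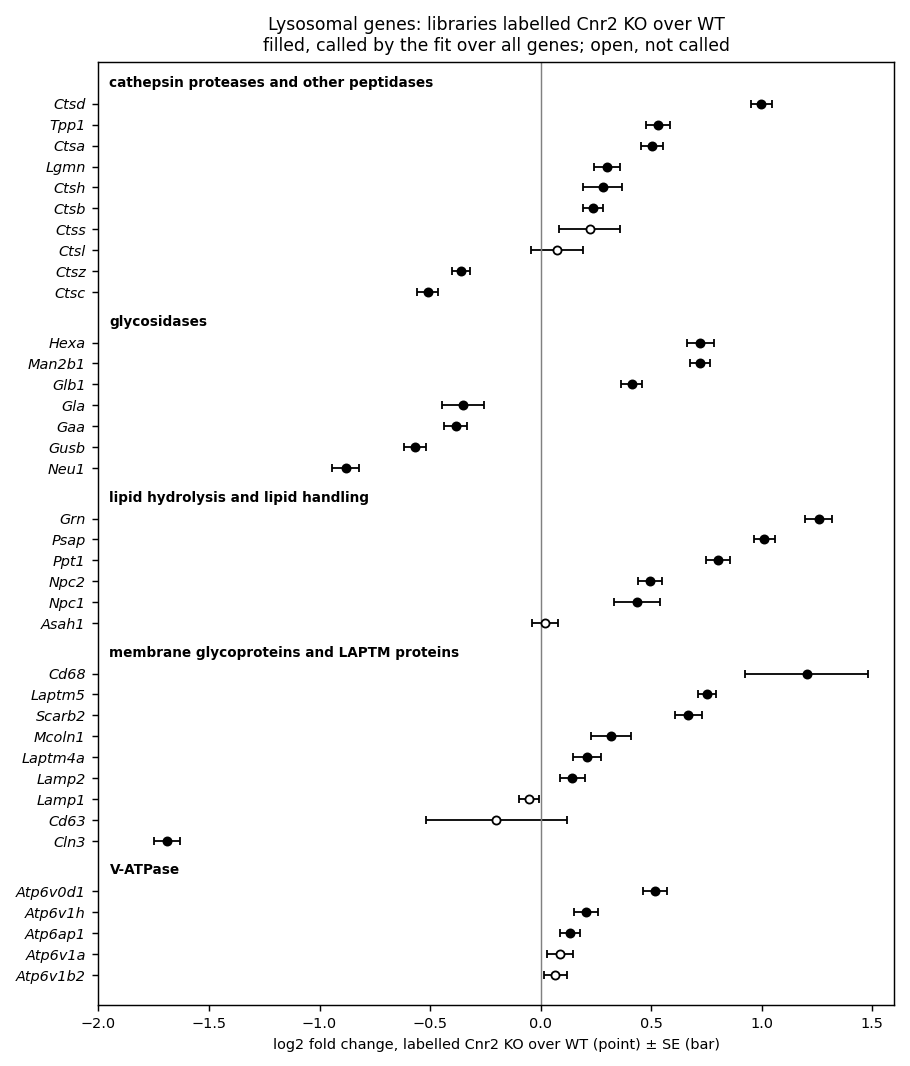
Log2 fold change of each lysosomal gene (x axis, libraries labelled Cnr2 KO over WT, 3 each) with its standard error as a bar, grouped by role. Filled points were called by the fit over all genes and open points were not. Grn and Cd68 lie farthest right at 1.26 and 1.20, and Cln3 farthest left at -1.69.

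Of the 10 proteases, 6 were called higher in libraries labelled Cnr2 KO and 2, cathepsins C and Z, lower. Among all tested genes, 33.1% were called higher and 33.2% lower. Ctsd (chromosome 7, 142375911 to 142388038, GRCm38) encodes cathepsin D, the main aspartic protease of lysosomes. Its level was 892, 911 and 820 CPM in libraries labelled Cnr2 KO, against 439, 446 and 427 CPM in WT. All 3 libraries labelled Cnr2 KO were above all WT libraries, and the log2 fold change was 1.00 (SE 0.05). Ctsa encodes cathepsin A, a carboxypeptidase that also holds neuraminidase 1 and beta-galactosidase in a complex. Its level was 136, 142 and 148 CPM in libraries labelled Cnr2 KO, against 102, 100.2 and 98.7 CPM in WT, a log2 fold change of 0.50 (SE 0.05). Tpp1, a tripeptidyl peptidase, stood at 107, 109.7 and 103 CPM in libraries labelled Cnr2 KO, against 70.2, 76.4 and 73.9 CPM in WT, with no overlap and a log2 fold change of 0.53 (SE 0.06).

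Of the 37 genes, 13 share exon bases with another annotated gene, Ctsd 808 bases with Gm49369 on its own strand, of which no value was analysed here, and Ctsb 774 bases with Fdft1 on the other strand, at 52.0 ± 1.70 CPM in libraries labelled Cnr2 KO and 61.6 ± 4.59 CPM in WT. Ctsb and Lgmn differed less than Ctsd, Ctsa and Tpp1. Cathepsin B, a cysteine protease, had 330, 321 and 312 CPM of Ctsb in libraries labelled Cnr2 KO, against 279, 272 and 265 CPM in WT (log2 fold change 0.24, SE 0.05). Lgmn encodes legumain, which cuts after asparagine and matures other cathepsins. It averaged 102 ± 2.26 CPM in libraries labelled Cnr2 KO and 83.0 ± 5.20 CPM in WT (SD, n = 3 each). For Ctsh, an aminopeptidase, the levels were 65.0, 70.5 and 89.6 CPM in libraries labelled Cnr2 KO, against 62.0, 60.6 and 62.8 CPM in WT. Replicate 3 of those labelled Cnr2 KO was the high value of Ctsh, and without it the log2 fold change moved to 0.14, against 0.28 with it, and the call was lost.

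Ctsz and Ctsc went the other way. Ctsz encodes cathepsin Z, a carboxypeptidase, and had the highest level per kilobase of exon of all 37 genes in WT. It was at 527, 535 and 527 CPM in libraries labelled Cnr2 KO, against 669, 673 and 697 CPM in WT, a log2 fold change of -0.36 (SE 0.04). Ctsc encodes dipeptidyl peptidase I, which activates the granzymes of cytotoxic lymphocytes and the serine proteases of mast cells. Its level was 121, 119 and 116 CPM in libraries labelled Cnr2 KO, against 169 CPM in each WT library, a log2 fold change of -0.51 (SE 0.05). The groups did not overlap in either gene. Cathepsins S and L, cysteine proteases known for processing the invariant chain in antigen-presenting cells, were low and not called. Ctss averaged 8.52 ± 0.194 CPM in libraries labelled Cnr2 KO and 7.38 ± 0.750 CPM in WT. Ctsl averaged 15.0 ± 1.57 CPM in libraries labelled Cnr2 KO and 14.5 ± 1.77 CPM in WT, with overlap between them (SD, n = 3 each).

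**Figure D2:**
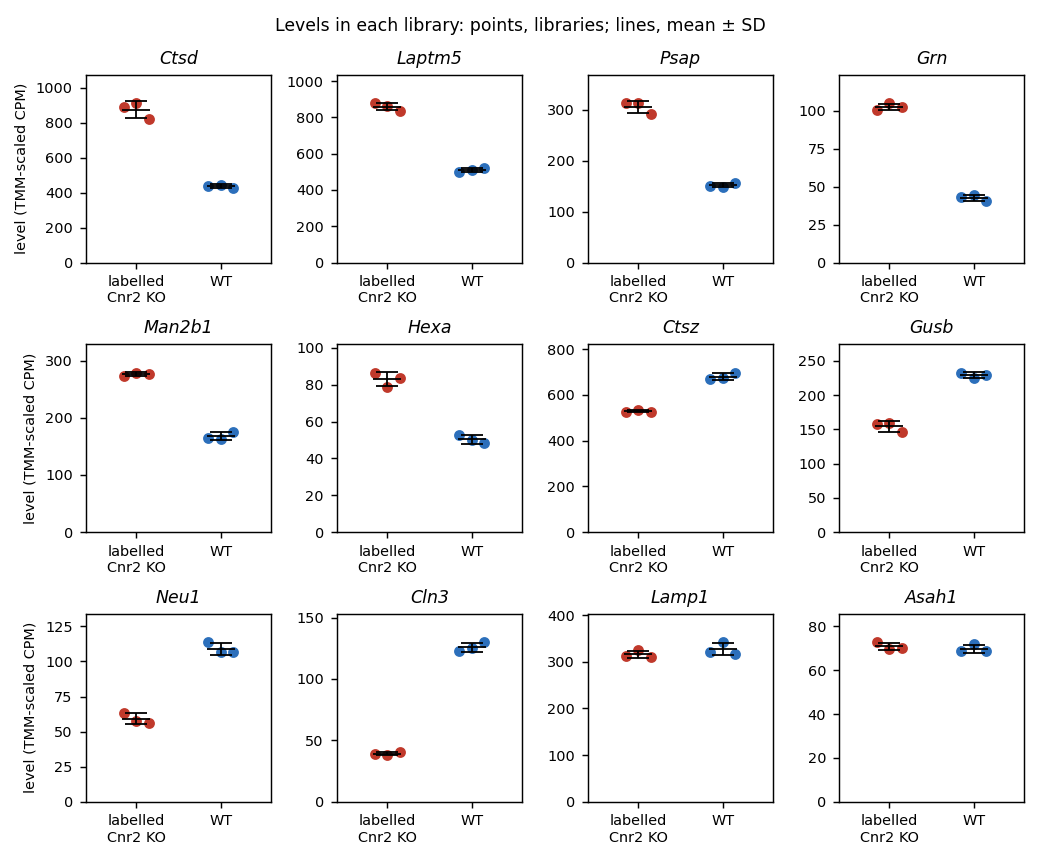
Level of 12 of the genes in each library (y axis, TMM-scaled CPM, starting at 0), with the libraries labelled Cnr2 KO on the left of each panel and WT on the right. Points are libraries and lines are the mean ± SD. The groups stand apart in 10 panels, from Ctsd to Cln3, and overlap for Lamp1 and Asah1.

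Of the 7 glycosidases, enzymes that trim sugar chains, 3 were called higher and 4 lower, as were 33.1% and 33.2% of all tested genes. Man2b1, lysosomal alpha-mannosidase, stood at 273, 279 and 277 CPM in libraries labelled Cnr2 KO, against 165, 163 and 175 CPM in WT, a log2 fold change of 0.72 (SE 0.05). Hexa, the alpha subunit of beta-hexosaminidase, which degrades GM2 ganglioside, was at 86.5, 78.9 and 83.5 CPM in libraries labelled Cnr2 KO, against 52.8, 49.98 and 48.1 CPM in WT (log2 fold change 0.72, SE 0.06). Glb1, beta-galactosidase, had 234.5, 235 and 235 CPM in libraries labelled Cnr2 KO, against 173, 172 and 185 CPM in WT (log2 fold change 0.41, SE 0.05). None of these 3 genes had overlapping groups.

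Neu1, Gusb, Gaa and Gla were the lower glycosidases. Neu1, neuraminidase 1, which removes sialic acid, stood at 63.5, 57.5 and 56.1 CPM in libraries labelled Cnr2 KO, against 114, 107 and 106.5 CPM in WT, a log2 fold change of -0.88 (SE 0.06). Its partners in the complex named above, Ctsa and Glb1, were both higher. Gusb, beta-glucuronidase, was at 157, 159.8 and 146 CPM in libraries labelled Cnr2 KO, against 233, 225 and 229.7 CPM in WT (log2 fold change -0.57, SE 0.05). Gaa, the acid alpha-glucosidase that degrades glycogen, averaged 108 ± 4.89 CPM in libraries labelled Cnr2 KO and 142 ± 5.78 CPM in WT. Gla, alpha-galactosidase A, which acts on glycolipids, averaged 17.0 ± 1.11 CPM in libraries labelled Cnr2 KO and 21.4 ± 1.61 CPM in WT (SD, n = 3 each). The groups did not overlap in any of the 4.

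Of the 6 genes of lipid handling, with granulin placed among them, 5 were called higher, as were 33.1% of all tested genes, and Asah1 was not called. Their summed level was 727.5, 728 and 699 CPM in libraries labelled Cnr2 KO, against 414, 421 and 421 CPM in WT, a ratio of 1.72. Grn encodes progranulin, which is cut into granulins in the lysosome. It was at 101, 105 and 102 CPM in libraries labelled Cnr2 KO, against 43.0, 44.7 and 40.5 CPM in WT, a log2 fold change of 1.26 (SE 0.06), the highest of the 37. Psap encodes prosaposin, the precursor of the saposins, which present sphingolipids to hydrolases. Its level was 312.5, 312.5 and 291 CPM in libraries labelled Cnr2 KO, against 150.4, 149 and 156 CPM in WT, a log2 fold change of 1.01 (SE 0.05). Both genes were about level across the libraries of a group and the groups stood far apart.

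Npc2 and Npc1 pass cholesterol out of the lysosome, NPC2 in the lumen and NPC1 in the membrane. Npc2 was at 92.7, 97.7 and 98.0 CPM in libraries labelled Cnr2 KO, against 66.1, 69.1 and 69.3 CPM in WT (log2 fold change 0.49, SE 0.06). Npc1 averaged 26.0 ± 3.38 CPM in libraries labelled Cnr2 KO and 19.2 ± 2.40 CPM in WT, and its lowest value labelled Cnr2 KO, 22.7 CPM, was just above its highest WT value, 21.6 CPM. With an offset for GC content and length, its log2 fold change was 0.268, against 0.436. Npc1 shares 511 exon bases with Rmc1 on the other strand, at 80.1 ± 4.14 CPM in libraries labelled Cnr2 KO and 77.7 ± 3.15 CPM in WT. The part of Rmc1 in the Npc1 value was not tested. Asah1, acid ceramidase, did not differ by more than its spread, at 70.9 ± 1.65 CPM in libraries labelled Cnr2 KO and 69.8 ± 1.89 CPM in WT (SD, n = 3 each).

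Ppt1, which removes palmitate from proteins, stood at 123, 114 and 114 CPM in libraries labelled Cnr2 KO, against 69.1, 66.8 and 65.4 CPM in WT, a log2 fold change of 0.80 (SE 0.06). Its exons share 129 bases with those of Cap1, an actin-regulating gene on the other strand. Cap1 averaged 1344 ± 47.6 CPM in libraries labelled Cnr2 KO and 116 ± 7.44 CPM in WT. No source used here gives the strand setting of the counting, so reads in the shared bases cannot be assigned, and the part of Cap1 in the Ppt1 value was not tested. Ppt1 also lies 13.0 Mb from Cnr2 on chromosome 4.

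Of the 9 membrane proteins, 6 were called higher and 1 lower, as were 33.1% and 33.2% of all tested genes. Laptm5, a transmembrane protein of blood cells that sends receptors to the lysosome, was at 878, 863 and 838 CPM in libraries labelled Cnr2 KO, against 499.8, 511 and 519 CPM in WT, a log2 fold change of 0.75 (SE 0.04). The groups did not overlap. Laptm5 lies 4.96 Mb from Cnr2 on chromosome 4 (130913125 to 130936141, GRCm38), and the part of that linkage was not tested. Scarb2, LIMP-2, the receptor that carries glucocerebrosidase to lysosomes, was at 89.2, 101 and 93.4 CPM in libraries labelled Cnr2 KO, against 59.4, 59.7 and 59.7 CPM in WT (log2 fold change 0.67, SE 0.06).

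Cln3 had the largest fold difference of the 37 genes. It encodes a multi-pass membrane protein whose loss causes a neuronal lipofuscinosis. Its level was 38.9, 38.03 and 40.1 CPM in libraries labelled Cnr2 KO, against 123, 125 and 129.9 CPM in WT, a log2 fold change of -1.69 (SE 0.06), or 3.23-fold lower. Every library labelled Cnr2 KO was below every WT library by a wide margin. Cln3 (chromosome 7, 126571207 to 126585817) shares 442 exon bases with Apobr on the other strand, and Apobr averaged 21.2 ± 3.71 CPM in libraries labelled Cnr2 KO and 30.1 ± 2.80 CPM in WT. The part of Apobr in the Cln3 value was not tested.

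The LAMP proteins, the main coat of the lysosomal membrane, hardly differed. Lamp1 was at 313, 325 and 311 CPM in libraries labelled Cnr2 KO, against 322, 342 and 318 CPM in WT, with overlap and no call. Lamp2, also a receptor for chaperone-mediated autophagy, averaged 100.7 ± 5.80 CPM in libraries labelled Cnr2 KO and 91.1 ± 2.28 CPM in WT (SD, n = 3 each). Its call as higher did not hold in 9 of 14 alternatives, and with an offset for GC content and length its log2 fold change was -0.015, against 0.14. Laptm4a, a relative of Laptm5, averaged 59.9 ± 1.80 CPM in libraries labelled Cnr2 KO and 51.7 ± 0.720 CPM in WT. Mcoln1, the TRPML1 channel, which releases calcium from lysosomes, was at 50.6, 38.5 and 44.1 CPM in libraries labelled Cnr2 KO, against 38.9, 33.9 and 34.7 CPM in WT, called higher although its groups overlapped.

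Cd68, of a protein best known from macrophages, and Cd63, of a tetraspanin, were near the bottom of the range. Cd68 had 60, 50 and 74 counts in libraries labelled Cnr2 KO, against 19, 214 and 27 counts in WT, that is 3.08, 2.67 and 4.10 CPM against 0.998, 1.66 and 1.43 CPM in WT. Its log2 fold change was 1.20 with a wide SE of 0.28. Cd63, with 44, 47 and 35 counts in libraries labelled Cnr2 KO, against 81, 282 and 28 counts in WT, was not called. WT replicate 1 held its highest level at 4.26 CPM, and without that library the log2 fold change was 0.215, against -0.20. These were the 2 genes with a coefficient of variation over 20% in either group.

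The V-ATPase subunits differed little, with 3 of 5 called higher, as were 33.1% of all tested genes, and none by 1.5-fold. Atp6v0d1, a subunit of the membrane part, was the exception at 90.2, 94.0 and 91.3 CPM in libraries labelled Cnr2 KO, against 64.3, 64.1 and 63.8 CPM in WT (log2 fold change 0.52, SE 0.05). Atp6v1h, a regulatory subunit of the cytosolic part, averaged 132 ± 7.44 CPM in libraries labelled Cnr2 KO and 114 ± 2.33 CPM in WT, and its call was lost with the offset for GC content and length, where its log2 fold change was 0.041, against 0.20. Atp6ap1, an accessory subunit, averaged 206 ± 5.01 CPM in libraries labelled Cnr2 KO and 187 ± 5.08 CPM in WT, and its call was lost in 5 of 14 alternatives, among them those without replicate 1 or 2 labelled Cnr2 KO or WT replicate 1 or 3. The catalytic subunit Atp6v1a averaged 117 ± 8.13 CPM in libraries labelled Cnr2 KO and 110 ± 5.58 CPM in WT, and Atp6v1b2 averaged 108 ± 2.68 CPM in libraries labelled Cnr2 KO and 103 ± 1.86 CPM in WT (SD, n = 3 each). Neither was called.

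Set against gene length, the 37 genes covered a wide range. Length was that of all annotated exons of a gene joined, which can be longer than any single transcript. Levels per kilobase of annotated exon ran from 0.607 CPM per kb for Cd63 to 372 CPM per kb for Ctsd in libraries labelled Cnr2 KO, and from 0.717 CPM per kb for Cd63 to 471.5 CPM per kb for Ctsz in WT. Ctsd, Ctsz, Laptm5, Lamp1 and Psap led the order in libraries labelled Cnr2 KO, and Ctsz, Ctsd, Laptm5, Lamp1 and Atp6ap1 in WT. Ctsd and Ctsz differed by less than the spread of Ctsd in libraries labelled Cnr2 KO, at 372 and 367.5 CPM per kb, whereas in WT Ctsz was far above Ctsd, at 471.5 against 186 CPM per kb. Cln3 stood at place 30 of 37 in libraries labelled Cnr2 KO and at place 17 in WT, and Grn at place 17 in libraries labelled Cnr2 KO and at place 27 in WT.

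**Figure D3:**
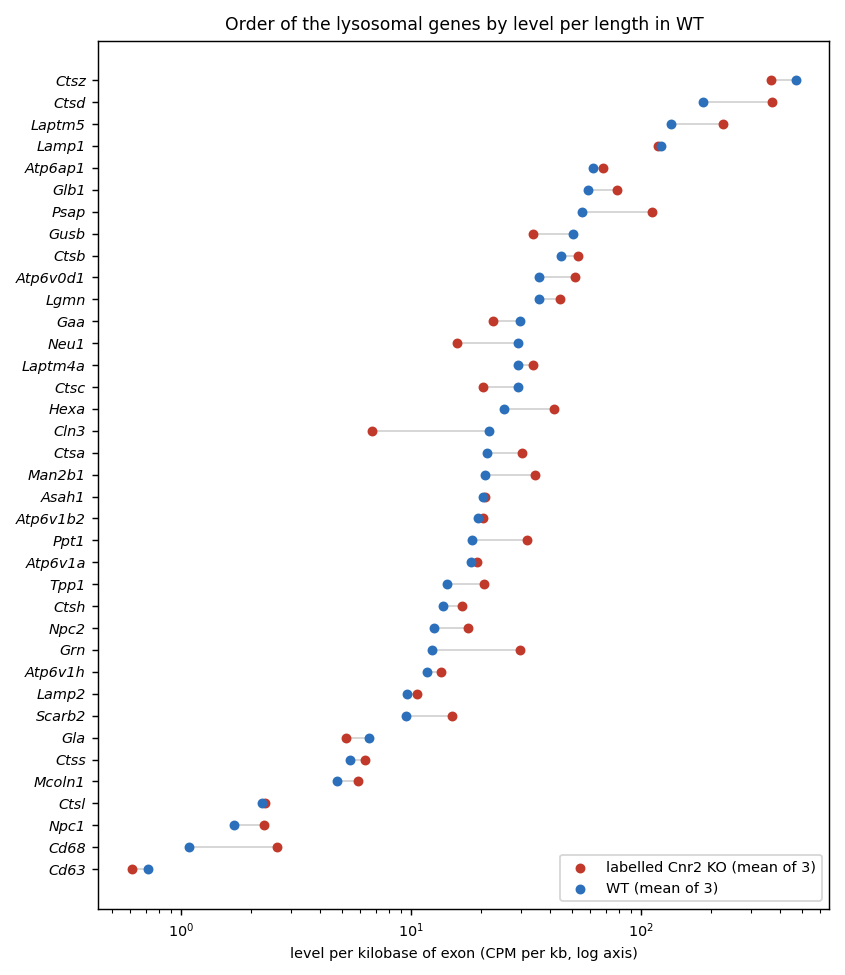
Mean level per kilobase of exon (x axis, log scale, CPM per kb) of each lysosomal gene, in the order of the WT levels from top to bottom. Red points are libraries labelled Cnr2 KO and blue points WT, each the mean of 3. The red Cln3 point lies left of its blue point, at 6.75 against 21.8 CPM per kb, and the red Grn, Psap and Ctsd points lie right of theirs.

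Genes of the lysosome outside the 37 were taken from lists written from general knowledge of the organelle, with earlier results of these data known. The genes named from each list are mainly those with the smallest p. Their p-values therefore label the values and are no independent test. Among soluble hydrolases and their cofactors, 34 of 49 tested genes were higher in libraries labelled Cnr2 KO and 8 were lower, with a median log2 fold change of 0.48 (edgeR quasi-likelihood test, Benjamini-Hochberg over all tested genes). The shares over all tested genes were 33.1% called higher and 33.2% called lower, with a median of 0.01. Gm2a, the activator protein that presents GM2 ganglioside to beta-hexosaminidase, rose to 859 ± 21.7 CPM in libraries labelled Cnr2 KO, against 352 ± 8.94 CPM in WT (adjusted p = 7.92e-15). Acp5, tartrate-resistant acid phosphatase, rose 5.02-fold, to 45.8 ± 6.19 CPM in libraries labelled Cnr2 KO, against 9.04 ± 0.371 CPM in WT (adjusted p = 2.82e-13). Galc, galactosylceramidase, fell 4.68-fold, to 9.31 ± 0.506 CPM in libraries labelled Cnr2 KO, against 43.4 ± 2.11 CPM in WT (adjusted p = 7.62e-14).

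Membrane proteins outside the 37 were higher in 16 and lower in 5 of 35 tested genes, with a median log2 fold change of 0.21. In both directions together, 60.0% were called, against 66.3% of all tested genes. Abcb9, a peptide transporter of the lysosomal membrane, rose to 169.9 ± 2.74 CPM in libraries labelled Cnr2 KO, against 85.5 ± 2.07 CPM in WT (edgeR adjusted p = 1.84e-12). Slc11a1, NRAMP1, a metal transporter of phagocytes, fell 3.47-fold and Slc15a3, a peptide and histidine transporter, fell 3.73-fold (adjusted p = 1.31e-12 and 1.18e-11). Of the other V-ATPase subunits and assembly factors, 4 of 16 were higher, 3 were lower and 9 did not pass (median log2 fold change 0.08). That was 43.8% called, against 66.3% of all tested genes. Under the offset for GC content and length, 8 were higher. Atp6v0a1, an isoform of the membrane subunit a, rose to 42.9 ± 3.34 CPM in libraries labelled Cnr2 KO, against 21.7 ± 0.447 CPM in WT (adjusted p = 2.11e-09). Atp6v0a2, another isoform, rose 1.34-fold and Tmem199, an assembly factor, fell 1.57-fold (adjusted p = 2.53e-07 and 1.50e-07).

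Of the genes of sorting to the lysosome, which include tethering and lysosome positioning genes, 7 of 24 were higher and 6 lower, with a median log2 fold change of 0.10. Of all tested genes, 33.1% were called higher and 33.2% lower, and nothing is read from the difference in so short a list. M6pr, the cation-dependent mannose 6-phosphate receptor, fell to 570, 556 and 517.5 CPM in libraries labelled Cnr2 KO, against 937, 922 and 898 CPM in WT (log2 fold change -0.75, SE 0.05, edgeR adjusted p = 3.86e-11). Nagpa, the enzyme that uncovers the mannose 6-phosphate tag, fell 1.67-fold, and Gga2, an adaptor for the receptors, fell 1.65-fold (adjusted p = 1.57e-08 and 1.03e-07). Their groups did not overlap. The remaining genes of this list called lower were Gga3, Ap3s2 and Arl8b, with log2 fold changes of -0.206, -0.31 and -0.187. Not every gene of this route fell. Igf2r, another mannose 6-phosphate receptor, was not called, at 46.2 ± 4.15 CPM in libraries labelled Cnr2 KO and 43.35 ± 4.99 CPM in WT. Gnptg, of the tagging enzyme, was called higher, at 41.6 ± 0.335 CPM in libraries labelled Cnr2 KO and 29.5 ± 3.15 CPM in WT.

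Of the TFEB family and the nutrient-sensing machinery on the lysosome, 9 of 19 tested genes were higher and 5 were lower, with a median log2 fold change of 0.20. The share called was 73.7%, against 66.3% of all tested genes. Tfeb rose to 17.7, 16.5 and 17.2 CPM in libraries labelled Cnr2 KO, against 5.20, 6.74 and 5.71 CPM in WT (log2 fold change 1.499, SE 0.12, edgeR adjusted p = 2.67e-09). Tfe3 fell to 25.8 ± 2.14 CPM in libraries labelled Cnr2 KO, against 33.8 ± 2.31 CPM in WT (adjusted p = 4.50e-04). Mitf was near the count limit, at 1.42 ± 0.220 CPM in libraries labelled Cnr2 KO and 0.706 ± 0.295 CPM in WT, with an adjusted p of 0.0394 and of 0.0436 to 0.14 when each library was left out. Fnip2 fell 1.56-fold and Flcn, folliculin, 1.35-fold (adjusted p = 1.27e-06 and 5.78e-06). Both form the complex that activates the Rag GTPases RagC and RagD. No value of Tfec was analysed here.

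Inhibitors of cathepsins were higher in 5 of 6 tested genes and lower in 0, with a median log2 fold change of 0.76. The share called was 83.3%, against 66.3% of all tested genes. Cst7, cystatin F, which controls cathepsin C in cytotoxic cells, rose to 67.8 ± 1.11 CPM in libraries labelled Cnr2 KO, against 32.1 ± 0.817 CPM in WT (edgeR adjusted p = 2.87e-11). Serpinb6a rose 1.82-fold and Serpina3g, a serpin that inhibits cathepsin B, rose 2.19-fold (adjusted p = 3.39e-11 and 1.16e-09). Serpina3g and Serpinb6a have close relatives in the genome, and reads may be split among those copies.

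**Figure D4:**
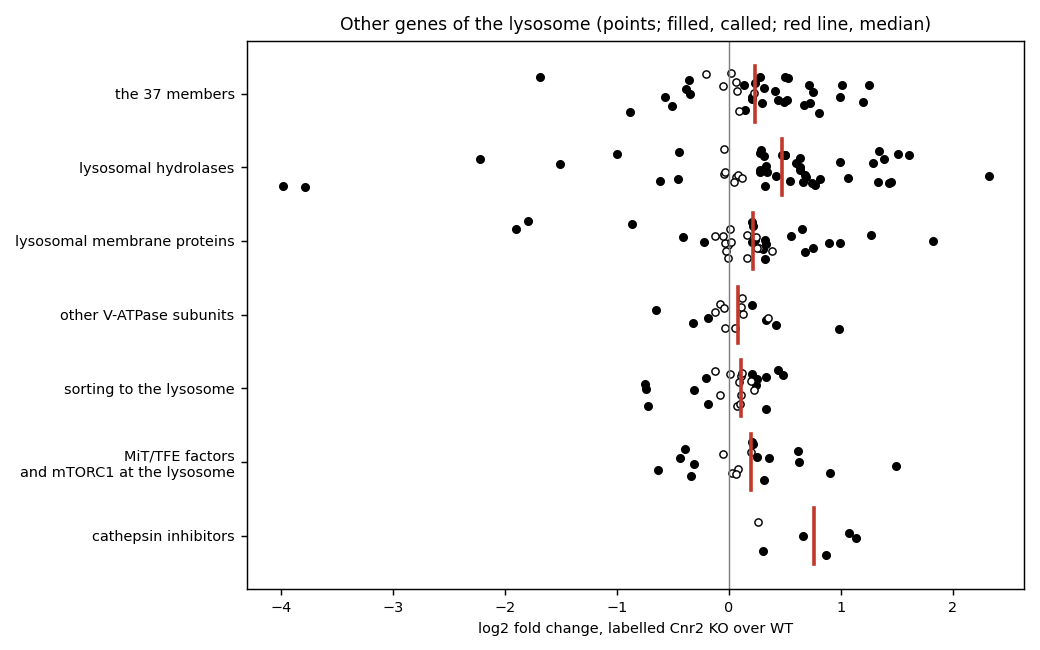
Log2 fold changes (x axis, libraries labelled Cnr2 KO over WT) of the 37 genes in the top row and of tested genes of the other lysosome lists below, 1 point per gene, filled where called. The red line is the median of each row, 0.24 for the 37 genes and 0.48 for the hydrolases, against 0.01 over all tested genes.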

How the data were processed

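RNA from lung ILC2s was counted in 3 libraries labelled Cnr2 KO and 3 WT libraries, with cDNA made from 10 pg of RNA by a low-input kit, per the labels' protocols. The deposited values are expected counts per gene, estimated counts that need not be whole. The build mm10 and the tools DESeq2, STAR 2.7.8 and Partek 10.0 are named, without roles, per the submitters' processing notes. The counting method is not given in the sources used here. Values were rounded and tested with edgeR 4.0.16 in R 4.3.3 (quasi-likelihood test, TMM scaling, filterByExpr with minimum count 10 and minimum total 15, group as the only term), which tested 12150 genes. A level is TMM-scaled CPM, with mean ± SD over 3 libraries. The SE of a log2 fold change is its size divided by the square root of F. No library repeated another of its group: chi-square per gene was 4.15 to 8.07 between them, above sampling noise. Positions and exon lengths are from GENCODE M21 (GRCm38), which matched 16231 of 16588 genes, and promoters from RefSeq (GRCm38.p6).

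The 37 genes and all lists were chosen with earlier results of these data known. Named genes are all 37, Cnr2, the 3 tested genes of each other list with the smallest p, and Tfeb, Tfe3, Mitf and Tfec. Igf2r, Gnptg, Gga3, Ap3s2 and Arl8b were added after their values were seen. Alternatives were DESeq2 size factors, no filter, a mean of at least 1 CPM, a replicate block, DESeq2 1.42.0, limma-voom (limma 3.58.1) with quality weights, each library left out, WT replicate 2 thinned to 18845462 counts, and an offset by exon length and GC content.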

Additional observations from a re-analysis of the deposited data

How the results depend on the processing

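Of the 37 genes, 21 to 23 were called higher and 7 lower under each of the 14 alternatives, against 23 and 7. Over all genes, 3749 to 4104 were called higher and 3771 to 4368 lower, against 4019 and 4034. The count of other V-ATPase subunits called higher was 8 with the offset for GC content and length, against 4. That offset turned the log2 fold changes of Ctsl to -0.02, Lamp1 to 0.012 and Lamp2 to -0.015, and called Ctss as higher. With each library left out, Ctsl ranged from -0.051 to 0.147 and Cd63 from -0.438 to 0.215. The cause of these shifts was not tested. Of the 14 alternatives, calls were lost in 1 for Ctsh, 1 for Atp6v1h, 5 for Atp6ap1, 9 for Lamp2 and 7 for Mitf. Whether replicate numbers pair the libraries was not settled. Deviations of same-numbered libraries from their group means correlated at 0.0656, 0.00571 and 0.0429, and those of other pairs at -0.0678 to 0.0293. Not every library correlated best with its own number, and deviations within groups of 3 cannot decide this. With the replicate block, 4061 genes were called higher and 4113 lower, and 23 and 7 of the 37. The lowest counts were those of Cd68, 19 to 214, and Cd63, 28 to 282, where counting error is widest.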

Other observations

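Some further lysosomal genes with wide differences were picked out after their values were seen. Ctsw, a cathepsin of cytotoxic lymphocytes, averaged 9.31 ± 1.21 CPM in libraries labelled Cnr2 KO and 3.37 ± 0.277 CPM in WT (SD, n = 3 each, edgeR adjusted p = 2.30e-07). Siae, a sialic acid esterase, averaged 21.2 ± 1.62 CPM in libraries labelled Cnr2 KO and 8.04 ± 1.13 CPM in WT (adjusted p = 3.10e-09), whereas Neu1, which removes sialic acid, was 1.84-fold lower. Plbd1, a phospholipase B-like protein, averaged 0.303 ± 0.0874 CPM in libraries labelled Cnr2 KO and 4.21 ± 0.782 CPM in WT (adjusted p = 5.14e-09).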
